A study of Homo sapiens with 3 samples.

Results

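The small nucleolar RNA (snoRNA) host noncoding genes followed here were GAS5, SNHG1, SNHG3, SNHG5, SNHG6, SNHG7, SNHG8, SNHG12, SNHG15 and ZFAS1. They were chosen by gene symbol, by a rule that uses no measured value although earlier results of these data were known, and all 10 were found among the 25270 symbols of the data. RNA sequencing was performed on total RNA of HepG2, a human hepatocellular carcinoma cell line, in 3 conditions with 1 library each (n = 1). Parental HepG2 cells were untreated, HepG2/metR cells had survived metformin, an inhibitor of mitochondrial complex I, for more than 5 months, and the third library came from HepG2/metR cells given oxamate, an inhibitor of lactate dehydrogenase, at 40 mM for 24 h. HepG2/metR is a single selected population, so whatever else distinguishes it from the parental line cannot be told apart from resistance to metformin. Without replicates none of the differences below can be set against a replicate error, and no p-values are given.

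A snoRNA host gene is transcribed by RNA polymerase II and carries snoRNAs in its introns. After splicing, the debranched intron is trimmed to the snoRNA, which guides chemical modification of ribosomal and spliceosomal RNA: box C/D snoRNAs direct ribose methylation and box H/ACA snoRNAs direct pseudouridylation. The exons of the noncoding hosts are joined into an RNA that holds only short reading frames, is often engaged by ribosomes and is then removed by nonsense-mediated decay, so the amount of spliced RNA reflects both synthesis and decay. Many of these hosts begin with a C followed by pyrimidines, the 5′ terminal oligopyrimidine (5′TOP) motif that they share with ribosomal protein mRNAs and through which mTOR signalling controls translation.

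The beginnings of the genes are shown because the 5′TOP motif is a feature that many noncoding hosts share with ribosomal protein mRNAs. RefSeq windows (GRCh38.p14) from 50 bases before to 50 bases after the annotated start were at hand for 8 of the 10 genes, all except SNHG6 and SNHG15. The windows are written in the sense of the RNA, and only that strand was searched. The letters TATAA and the run of pyrimidines that starts with a C at the annotated start are in capitals in 6 of these windows. The windows lie at chr11:62855836-62855935 for SNHG1, chr6:85678684-85678783 for SNHG5, chr9:136728135-136728234 for SNHG7 and chr1:28581824-28581923 for SNHG12, all on the minus strand, and at chr4:118278712-118278811 for SNHG8 and chr20:49278592-49278691 for ZFAS1 on the plus strand.
SNHG1: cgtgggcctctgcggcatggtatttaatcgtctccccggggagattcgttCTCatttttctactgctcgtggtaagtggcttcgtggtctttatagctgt
SNHG5: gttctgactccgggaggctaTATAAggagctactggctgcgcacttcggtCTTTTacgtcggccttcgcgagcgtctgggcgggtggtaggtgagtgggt
SNHG7: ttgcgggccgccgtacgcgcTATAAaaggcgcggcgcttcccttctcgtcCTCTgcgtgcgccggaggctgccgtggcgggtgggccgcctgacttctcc
SNHG8: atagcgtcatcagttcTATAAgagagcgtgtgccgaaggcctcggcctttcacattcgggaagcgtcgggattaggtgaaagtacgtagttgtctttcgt
SNHG12: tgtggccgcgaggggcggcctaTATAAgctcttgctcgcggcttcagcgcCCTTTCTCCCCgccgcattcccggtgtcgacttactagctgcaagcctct
ZFAS1: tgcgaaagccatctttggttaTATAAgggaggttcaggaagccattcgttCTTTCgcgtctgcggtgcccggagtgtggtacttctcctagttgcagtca

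TATAA lay within the 50 bases before the start in 5 of the 8 genes (SNHG5, SNHG7, SNHG8, SNHG12 and ZFAS1), beginning 28 to 34 bases before it, and in 4.74% of all 35116 windows in the table. A C at the start followed by at least 1 pyrimidine was found in 5 of 8 (SNHG1, SNHG5, SNHG7, SNHG12 and ZFAS1) against 10.6% of all windows. A C followed by at least 3 pyrimidines was found in 4 of 8 against 5.45%. The longest run, 11 pyrimidines, was that of SNHG12. The windows of GAS5 and SNHG3 held neither feature, but the annotated start of GAS5 differs between gene sets: the GENCODE 29 gene begins 163 bases downstream of the RefSeq start, and its transcript GAS5-219 begins further downstream still. The first exon of GAS5-219, picked after the RefSeq window had been read, lies at chr1:173867960-173867989 (GRCh38, minus strand), with its leading pyrimidine run of 6 bases in capitals.
GAS5-219: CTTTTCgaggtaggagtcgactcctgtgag

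The starts of the other genes differed between RefSeq and GENCODE by 0 bases for SNHG7 and by up to 1259 bases for SNHG12, so a match is a description of a window and not of the start used in these cells.

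The levels below are in FPKM, the number of sequenced fragments per gene corrected for transcript length and for the size of the library, which allows levels to be compared between genes. The authors deposited log2(FPKM + 1), and a log2 change is the difference of 2 deposited values. It understates the change of a gene with a low level in either library. Share of genes refers to the 12210 symbols with a mean of at least 1 FPKM over the libraries, all 10 host genes included. FPKM summed to between 473773 and 562382 per library, and 11356 to 11649 genes reached 1 FPKM. The number of reads is unknown. From the smallest values, the HepG2/metR and oxamate-treated libraries were 1.21 and 1.24 times as deep as the parental library.

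The 10 genes together were at 1220 FPKM in parental HepG2 cells, 2038 FPKM in HepG2/metR cells and 2098 FPKM in oxamate-treated HepG2/metR cells. This was 0.217%, 0.381% and 0.443% of the summed FPKM of the libraries. The composition differed more than the sum. SNHG5 was the highest of the 10 in parental cells with 29.3% of their sum, GAS5 in HepG2/metR cells with 33.0%, and SNHG8 in oxamate-treated cells with 32.5%. SNHG15 was the lowest in parental and in oxamate-treated cells, and SNHG12 in HepG2/metR cells.

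**Figure D1:**
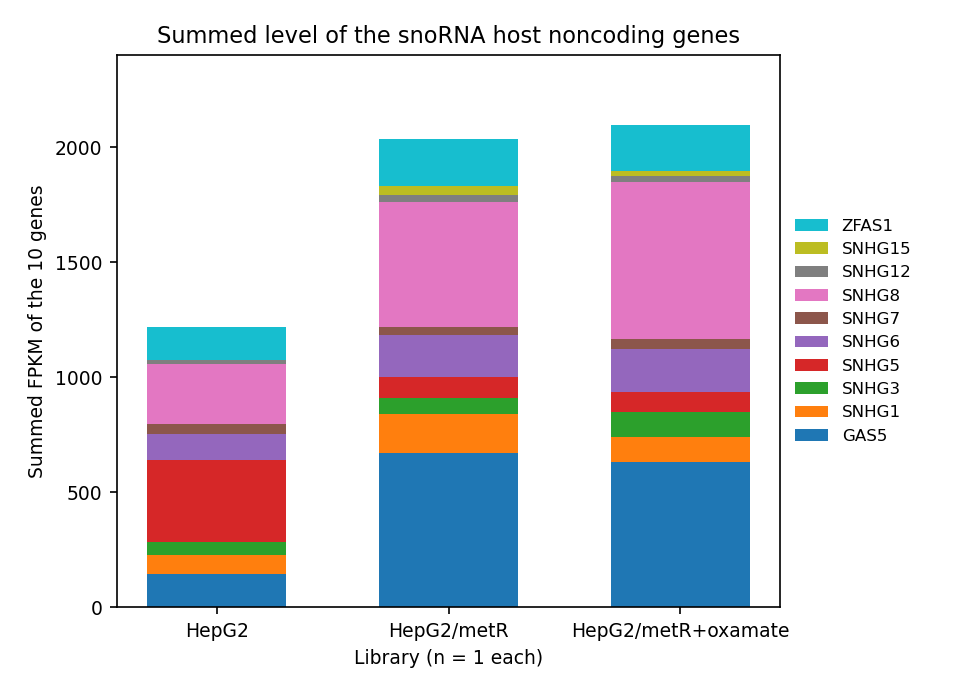
Summed FPKM of the 10 snoRNA host genes (y axis) in each library (x axis, n = 1 each), with 1 coloured segment per gene. The sums are 1220, 2038 and 2098 FPKM, and the SNHG5 segment is widest in parental HepG2 while the GAS5 and SNHG8 segments are widest in both HepG2/metR libraries.

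Between HepG2/metR and parental HepG2, 8 of the 10 genes had a higher and 2 a lower value in HepG2/metR, and those signs held under every scaling between libraries that was tried. At least 2-fold higher were 3 genes (GAS5, SNHG8 and SNHG15), against 16.6% of all genes, and at least 2-fold lower was 1 gene (SNHG5), against 17.6% of all genes. Another 3 genes (SNHG1, SNHG6 and SNHG12) were between 1.5-fold and 2-fold higher, as were 10.2% of all genes, which makes 6 genes at least 1.5-fold higher, against 26.7%. The log2 change had a median of 0.65 over the 10 genes and of 0.02 over all genes. The median size of the change, regardless of sign, was 0.81 for the 10 genes and 0.65 for all genes.

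Between oxamate-treated and untreated HepG2/metR cells the differences were smaller. None of the 10 genes was at least 1.5-fold higher, against 4.3% of all genes, and 2 (SNHG1 and SNHG15) were at least 1.5-fold lower, against 3.82%. The median log2 change was -0.03 for the 10 genes and 0.02 for all genes, and 5 of the 10 genes were within 0.25 of no change, as were 57.5% of all genes. These counts depend on how the libraries are scaled to each other. With each library set to the same FPKM total, 9.75% of all genes were at least 1.5-fold higher and 1.57% lower, the median of all genes moved to 0.17 and that of the 10 genes to 0.15, with 2 genes past 1.5-fold higher (SNHG3 and SNHG7) and 1 lower (SNHG15). Relative to the median of all genes, the median of the 10 genes was -0.05 as deposited and -0.02 with equal totals.

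**Figure D2:**
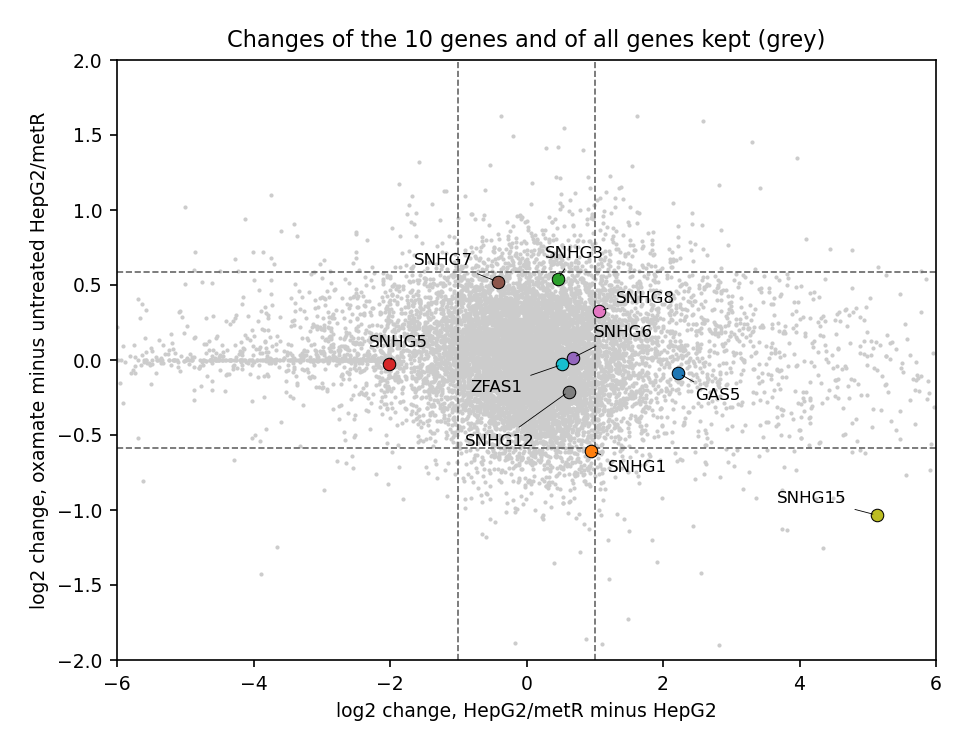
Log2 change between HepG2/metR and HepG2 (x axis) and between oxamate-treated and untreated HepG2/metR (y axis) for the 10 host genes (coloured points) and the 12210 genes kept (grey points, of which 178 lie outside the axes). Dashed lines mark 2-fold on the x axis and 1.5-fold on the y axis, and both axes use the HepG2/metR library, so a high value there moves a gene right and down. SNHG15 (5.13 and -1.03) lies at the lower right and SNHG5 (-2.01 and -0.02) is the only one of the 10 left of -1.

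Hosts of mainly box C/D snoRNAs were GAS5, SNHG1, SNHG5, SNHG6 and ZFAS1. They summed to 846 FPKM in parental, 1320 FPKM in HepG2/metR and 1219 FPKM in oxamate-treated cells. Between parental and HepG2/metR cells 4 of the 5 were higher, with a median log2 change of 0.68, and with oxamate the median was -0.03.

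GAS5, first found as a transcript that accumulates in growth-arrested cells and later described as a decoy for the glucocorticoid receptor, carries the largest set of snoRNAs of the 10. It was at 142.8 FPKM in parental HepG2, 671 FPKM in HepG2/metR and 632 FPKM with oxamate. Both HepG2/metR libraries were high and the parental library low. The log2 change from parental to HepG2/metR was 2.23, a ratio of 4.70, higher than in 94.3% of all genes, and GAS5 moved from rank 575 to rank 123 among all symbols. With oxamate the log2 change was -0.09 as deposited and between -0.11 and 0.11 over the scalings, so its sign depended on the scaling.

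SNHG5, the host of SNORD50A and SNORD50B, went the other way. It was at 358 FPKM in parental HepG2, 88.0 FPKM in HepG2/metR and 86.5 FPKM with oxamate. The parental library was high and the 2 HepG2/metR libraries were close to each other. The log2 change to HepG2/metR was -2.01, or 4.06-fold lower, and 8.31% of all genes had a lower one. With oxamate it was -0.02, and positive (up to 0.17) when libraries were set to equal totals. Because GAS5 and SNHG5 stand in the same library, their ratio needs no scaling: GAS5 was at 0.399 times the FPKM of SNHG5 in parental cells, at 7.63 times in HepG2/metR and at 7.30 times with oxamate.

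SNHG1, the first host gene described whose spliced RNA codes for no protein, was at 85.9 FPKM in parental HepG2, 167 FPKM in HepG2/metR and 109 FPKM with oxamate. HepG2/metR was the highest of the 3 and the oxamate-treated library lay nearer to the parental one. The log2 change to HepG2/metR was 0.95, which missed 2-fold by 0.05 and passed it under all scalings except median-of-ratios. The change with oxamate was -0.61, which passed 1.5-fold by 0.02 and did not pass it with equal totals (-0.42 to -0.44). Its neighbour SLC3A2, which encodes the heavy chain of amino acid transporters, was at 162 FPKM, 206 FPKM and 146 FPKM in the same order of libraries, also highest in HepG2/metR.

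SNHG6, the host of SNORD87, was at 116 FPKM in parental HepG2, 186 FPKM in HepG2/metR and 188 FPKM with oxamate. ZFAS1, which is transcribed divergently from the start of ZNFX1 and hosts the SNORD12 family, was at 144 FPKM, 207 FPKM and 203 FPKM in the same order. Both were lowest in the parental library and nearly equal in the 2 HepG2/metR libraries. The log2 changes to HepG2/metR were 0.68 for SNHG6 and 0.52 for ZFAS1. With oxamate they were 0.01 and -0.03, and the sign of both turned with the scaling. ZNFX1 itself was at 6.71 FPKM, 8.96 FPKM and 10.9 FPKM.

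Hosts of box H/ACA snoRNAs only were SNHG3, SNHG7, SNHG8 and SNHG15. They summed to 354 FPKM in parental, 686 FPKM in HepG2/metR and 852 FPKM in oxamate-treated cells. With oxamate 3 of the 4 had a positive log2 change under every scaling, with a median over the 4 of 0.42, while of the 5 mainly box C/D hosts 1 had a positive change as deposited and 4 with equal totals. With 4 and 5 genes and 1 library per condition, that contrast is given as a description.

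SNHG8, the host of SNORA24, was high in every library. It was at 258 FPKM in parental HepG2, 543 FPKM in HepG2/metR and 682 FPKM with oxamate. The levels were in that order, and SNHG8 was the only gene of the 10 past 2-fold in HepG2/metR that was, as deposited, higher again with oxamate (GAS5 was too with equal totals, by at most 0.11). The log2 change to HepG2/metR was 1.07, past 2-fold by 0.07, and that with oxamate was 0.33, with a range of 0.31 to 0.52 over the scalings. PRSS12, a secreted serine protease encoded next to it, was low, at 0.0187 FPKM, 1.56 FPKM and 1.46 FPKM.

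SNHG3, the host of the U17 snoRNAs that act in 18S ribosomal RNA maturation, was at 52.7 FPKM in parental HepG2, 72.8 FPKM in HepG2/metR and 106 FPKM with oxamate. SNHG7, the host of SNORA17A and SNORA17B, was at 42.5 FPKM, 31.4 FPKM and 45.5 FPKM. SNHG3 was highest with oxamate, and SNHG7 was lowest in untreated HepG2/metR. The log2 changes to HepG2/metR were 0.46 and -0.42, and those with oxamate were 0.54 and 0.52, just under 1.5-fold as deposited and past it with equal totals (0.73 and 0.71 at most). SNHG1 was at 1.63 times the FPKM of SNHG3 in parental cells, at 2.29 times in HepG2/metR and at 1.03 times with oxamate. SNHG3 overlaps RCC1, the exchange factor of the GTPase Ran, on the genome, and fragments could be split between them. RCC1 was at 67.3 FPKM, 74.1 FPKM and 59.0 FPKM, with a log2 change of -0.32 with oxamate.

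SNHG15, the host of SNORA9 and a short-lived RNA that accumulates in stressed cells, showed the largest change of the 10 in both comparisons. It was at 0.141 FPKM in parental HepG2, 39.1 FPKM in HepG2/metR and 18.6 FPKM with oxamate. The parental library was near 0 and untreated HepG2/metR was the highest. The log2 change to HepG2/metR was 5.13, higher than in 99.3% of all genes, and without the pseudocount it was 8.12, a ratio of 278. With oxamate it was -1.03, or 2.10-fold lower, and 0.459% of all genes had a lower change. The scalings gave -1.06 to -0.85, past 1.5-fold in each.

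The parental value of SNHG15 rests on very little signal. In the same library RPL21, a ribosomal protein that growing cells need, was listed at 0.00975 FPKM, with 18.0 FPKM in HepG2/metR and 9.02 FPKM with oxamate. RPL21 was singled out after its values were seen, so a value near 0 was listed in the parental library for a gene that growing cells need. Whether the parental value of SNHG15 is of that kind was not tested. The gene nearest to SNHG15, MYO1G, was low in every library, at 0.425 FPKM, 0.0220 FPKM and 0 FPKM, and was not kept. The genes nearest among those kept, also chosen after the values were seen, were CCM2 at 11.8 FPKM, 13.0 FPKM and 11.9 FPKM and PURB at 5.69 FPKM, 8.81 FPKM and 12.5 FPKM. The filter on the mean takes out most genes near 0, so CCM2 and PURB decide nothing about the parental value of SNHG15.

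SNHG12, which hosts SNORA16A, SNORA44, SNORA61 and SNORD99 and so both classes, was the lowest of the 10 in HepG2/metR. It was at 20.1 FPKM in parental HepG2, 31.4 FPKM in HepG2/metR and 27.0 FPKM with oxamate. The parental library was the lowest. The log2 changes were 0.62 and -0.21. TRNAU1AP, a selenocysteine tRNA-associated protein whose gene overlaps SNHG12, was at 7.02 FPKM, 17.1 FPKM and 14.0 FPKM, the same order of the libraries. The strand setting of the libraries is not given in the sources used here, so fragments of genes that overlap on opposite strands cannot be told apart. SNHG12 was at 0.803 times the FPKM of SNHG15 in HepG2/metR and at 1.45 times with oxamate.

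**Figure D3:**
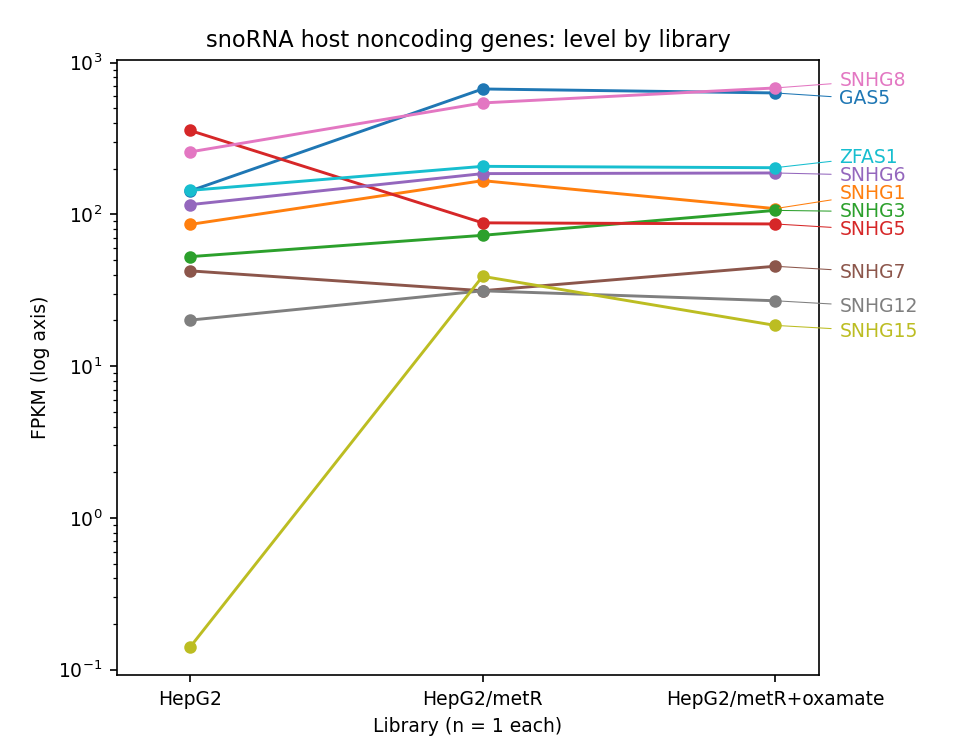
FPKM on a log axis (y axis) of each of the 10 host genes in the 3 libraries (x axis, n = 1 each), with lines joining the values of a gene. GAS5 goes from 142.8 to 671 FPKM and SNHG5 from 358 to 88.0 FPKM between HepG2 and HepG2/metR, SNHG15 starts at 0.141 FPKM, and the lines of 5 of the 10 genes are near level (within 0.25 on the log2 scale) between the 2 HepG2/metR libraries.

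Markers of cell type also differed between parental HepG2 and HepG2/metR, in the same pair of libraries as every parental comparison above. Every one of 9 hepatocyte markers was past 2-fold lower, against 17.6% of all genes. Their summed level was 31022 FPKM in parental cells, 13.9 FPKM in HepG2/metR and 11.1 FPKM with oxamate. Albumin (ALB) was at 9206 FPKM, 0.747 FPKM and 0.617 FPKM, and APOA1 and TTR were listed at 0 in HepG2/metR. Thus the liver label was borne out by the markers in the parental library and not in the others. Of 5 mesenchymal markers 3 were at least 2-fold higher, against 16.6% of all genes, among them vimentin (VIM) at 1.23 FPKM, 1576 FPKM and 1140 FPKM. At least 2-fold lower was 1, against 17.6%: FN1, at 1503 FPKM, 45.7 FPKM and 93.7 FPKM. The part of this shift in the levels of the host genes was not tested. A change of state and a different origin of the HepG2/metR cells cannot be told apart from these values, so each parental comparison is between cell populations that differ in much more than metformin resistance, and in bulk RNA fewer cells of a type and less RNA per cell cannot be told apart.

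The snoRNAs themselves were poorly represented. RefSeq places 36 snoRNA genes within the bounds of the 10 hosts, and strand was not compared. Of these, 32 were listed in the data and 4 were not found by name, among them SNORA73A and SNORA73B, the pair inside SNHG3. Only 7 of the 32 reached 0.01 FPKM in any library, 25 did not, and 1, SNORD22, did in all 3 libraries. The 7 had a median length of 130 bases and the 25 of 75 bases. Box H/ACA snoRNAs, which are longer, were seen more often than box C/D snoRNAs, with 4 of 7 against 3 of 25 inside the hosts and 49.5% of 105 against 7.39% of 257 in the data as a whole.

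The detected snoRNAs were mostly listed in 1 library only. Inside SNHG1, SNORD22 was at 30.9 FPKM in parental cells, 14.8 FPKM in HepG2/metR and 15.0 FPKM with oxamate. Inside GAS5, SNORD47 was at 1062 FPKM in the oxamate-treated library and listed at 0 in the others, and the other 9 listed box C/D snoRNAs of GAS5 were at 0 throughout. Inside SNHG12, SNORD99 was at 754 FPKM in HepG2/metR and listed at 0 in the others, SNORA61 was at 0, 23.7 and 12.0 FPKM, and SNORA16A was at 19.3 FPKM in HepG2/metR alone. SNORA24 in SNHG8 was at 22.5 FPKM in HepG2/metR and at 0 in the others, and SNORA17B in SNHG7, listed under its older symbol SNORA43, was at 11.2 FPKM in parental cells and under 0.01 FPKM in the others. The number of fragments behind these values is unknown, and no change is read from them.

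A pair of box C/D snoRNAs and a box H/ACA snoRNA are shown to make their sizes and some of the class boxes visible. Of the pair, SNORD99 is short and SNORD22 is close to SNORA24 in length. The letters ATGA (part of box C) and CTGA (box D), or the ACA box near the 3′ end, are in capitals. They are from GENCODE 29 (GRCh38): SNORD99 at chr1:28578749-28578822 (minus strand, 74 bases), SNORD22 at chr11:62852910-62853035 (minus strand, 126 bases) and SNORA24 at chr4:118279190-118279320 (plus strand, 131 bases).
SNORD99: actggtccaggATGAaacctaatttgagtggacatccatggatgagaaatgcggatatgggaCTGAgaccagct
SNORD22: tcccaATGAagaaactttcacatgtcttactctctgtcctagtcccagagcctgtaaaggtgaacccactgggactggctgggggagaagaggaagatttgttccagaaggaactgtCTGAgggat
SNORA24: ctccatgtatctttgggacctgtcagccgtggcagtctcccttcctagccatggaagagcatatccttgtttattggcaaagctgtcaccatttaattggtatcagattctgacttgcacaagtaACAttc

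Other genes of the same biology were set beside the 10 hosts. Of 23 further noncoding hosts listed, 13 were found and 10 kept, with median log2 changes of -0.09 to HepG2/metR and 0.08 with oxamate. Of these 1 was at least 2-fold higher in HepG2/metR (SNHG9, at 32.2 FPKM, 87.7 FPKM and 66.8 FPKM), against 16.6% of all genes. At least 2-fold lower was 1 (SNHG10, at 14.8 FPKM, 5.84 FPKM and 6.21 FPKM), against 17.6%. With oxamate none passed 1.5-fold as deposited, while 4.3% of all genes were higher and 3.82% lower. With equal totals 2 of the 11 kept were past it, both higher, against 9.75% of all genes, or 10.6% without small RNA genes. DANCR, which restrains differentiation of progenitor cells, was nearly 2-fold lower in HepG2/metR, at 107 FPKM, 54.3 FPKM and 54.1 FPKM. Thus the median of 0.65 in the 10 genes was not shared by the other noncoding hosts, whose median was negative as deposited and positive under 3 of the 4 other scalings, at most 0.08. Long noncoding RNAs without snoRNAs had a median of 0.57 over 14 genes. Of these 4 were at least 2-fold higher, such as UCA1 (1.21, 33.6 and 44.3 FPKM), against 16.6% of all genes, and 1 was lower, against 17.6%.

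Protein-coding hosts outside the ribosome had a median of -0.12 over 19 genes to HepG2/metR. None passed 2-fold, while 16.6% of all genes were higher and 17.6% lower. With oxamate 3 of the 19 were at least 1.5-fold lower (NCL, NOP56 and DKC1), against 3.82% of all genes. At least 1.5-fold higher was 1 (EIF4A2, a translation initiation helicase, at 166 FPKM, 105 FPKM and 183 FPKM), against 4.3%. With equal totals 1 was lower and 1 higher, and the median moved from -0.22 to -0.06, or to -0.04 without small RNA genes. In the parental comparison the median was 0.42 for 78 ribosomal protein genes, which carry the 5′TOP motif, and 0.55 for 15 other 5′TOP mRNAs. At least 2-fold higher were 6 of the 78, among them RPL21 (4.23) with its near-0 parental value, and 2 of the 15 (NAP1L1 the most, at 1.92). In both lists 0 were at least 2-fold lower. Of all genes 16.6% were at least 2-fold higher and 17.6% lower, so neither count is read as a rise of these lists. With oxamate the medians were -0.22 and -0.09 as deposited, and -0.05 and 0.09 with equal totals, so for the latter list the direction turned.

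The proteins that bind snoRNAs had lower values with oxamate. All 8 core proteins of the snoRNA particles had a negative log2 change under each of the 5 scalings. As deposited their median was -0.54, against 0.02 for all genes, of which 5563 of 12210 were below 0. At least 1.5-fold lower were 3 of the 8 (NOP56, DKC1 and NHP2L1), against 3.82% of all genes. NOP56 and DKC1 were also counted among the protein-coding hosts above. With equal totals 1 of the 8 was at least 1.5-fold lower, against 1.57% of all genes, or 1.42% without small RNA genes. NOP56, a scaffold of the box C/D particle, was at 306 FPKM in parental cells, 193 FPKM in HepG2/metR and 99.9 FPKM with oxamate. DKC1, the pseudouridine synthase of the box H/ACA particle, was at 83.8 FPKM, 100.0 FPKM and 61.2 FPKM. In the parental comparison 7 of the 8 were positive, with a median of 0.26 and none past 2-fold. The assembly factors had a median of 0.73 over 9 genes in that comparison, with 2 at least 2-fold higher, RUVBL1 and ZNHIT6, against 16.6% of all genes. With oxamate PIH1D1 and RUVBL2 were at least 1.5-fold lower as deposited, against 3.82% of all genes, and neither with equal totals.

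Factors of nonsense-mediated decay, the route by which the spliced host RNAs are removed, had medians of 0.10 and 0.07 over 14 genes. Of the 14, 2 were past 2-fold higher in HepG2/metR, against 16.6% of all genes: UPF3B (10.4, 35.1 and 30.6 FPKM) and SMG9 (11.4, 27.5 and 26.9 FPKM). SMG1, the kinase that starts the process by phosphorylating UPF1, was at 14.8 FPKM, 9.23 FPKM and 12.0 FPKM, lowest in untreated HepG2/metR. No decay factor was at least 1.5-fold different with oxamate, while 4.3% of all genes were higher and 3.82% lower.

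**Figure D4:**
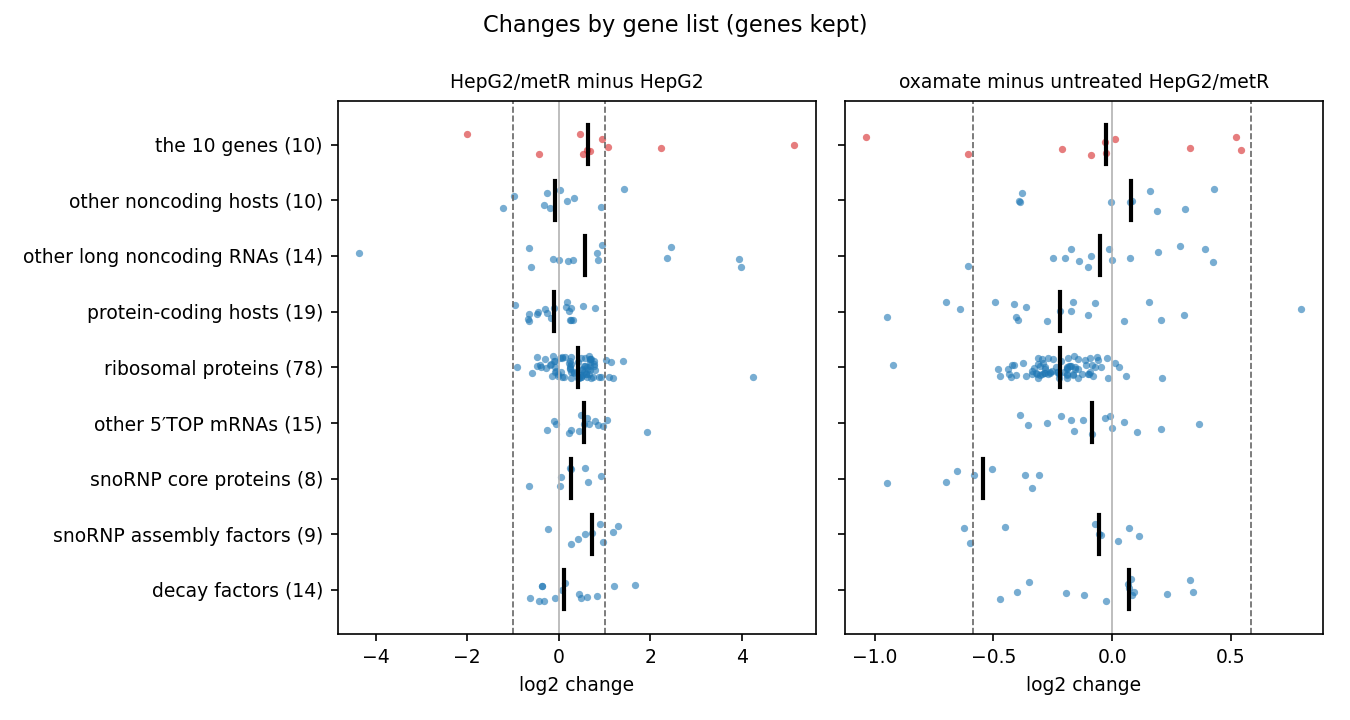
Log2 change (x axes) of each gene kept in 9 lists (y axis, number of genes in brackets) between HepG2/metR and HepG2 (left) and between oxamate-treated and untreated HepG2/metR (right), as deposited. Points are genes, spread vertically at random, black bars are medians and dashed lines mark 2-fold (left) and 1.5-fold (right). The 10 host genes have a median of 0.65 on the left and -0.03 on the right, where the snoRNP core proteins have -0.54.

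The genes whose 2 log2 changes lay closest to the pair of medians of the 10 hosts, out of 6473 genes with a mean of at least 10 FPKM, were IAH1, EIF3E, ETHE1, GIPC1 and SDCBP. Likeness was the Euclidean distance between pairs of log2 changes, which rests on 3 libraries and was 0.0143 for IAH1 and 0.0270 for SDCBP. EIF3E, a subunit of translation initiation factor eIF3, was at 223 FPKM in parental cells, 354 FPKM in HepG2/metR and 347 FPKM with oxamate.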

How the data were processed

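Total RNA of 3 cell conditions was sequenced by the authors by a standard Illumina workflow, with 1 library per condition. The submitters' processing notes name FastQC 0.11.5, STAR 2.5.1b, Cufflinks 2.2.1 and the build hg19. The annotation, filters and strand setting are not given in the sources used here. The authors deposited 1 value per symbol on a log2 scale. It was read as log2(FPKM + 1), since 2 to the power of a value, minus 1, had at most 6 significant digits for 100% of values above 1 (tolerance 1e-07). Of the symbols, 28 had been turned into dates and were not used by name.

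Changes were differences of deposited values over genes with a mean of at least 1 FPKM, with a pseudocount of 1 and thresholds of 2-fold and 1.5-fold after the study's methods. Named were every member, hosted snoRNAs, neighbouring genes, the extremes of each list at a mean of at least 10 FPKM, and the 5 most similar genes. Other names were chosen after their values were seen. The members and lists were chosen with earlier results of these data known. Protein-coding hosts share 4 genes with the other 5′TOP mRNAs and 2 with the core proteins. Hosted snoRNAs and neighbours came from the RefSeq table, sequences from RefSeq and GENCODE 29. No test was run. The calculation was run on simulated data in which large changes were set without noise. That run checked the arithmetic, and did not cover changes at low levels or the 1.5-fold threshold. Relative depth came from values under 0.15 FPKM. Alternatives were 2 other pseudocount settings, 2 filters, 4 scalings and another fold threshold. Computations used numpy 2.4.6, matplotlib 3.10.9 and pandas 2.3.3 under Python 3.11.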

Additional observations from a re-analysis of the deposited data

How the results depend on the processing

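No paired analysis was possible because each condition had 1 library, and for the same reason no library could be left out. All 10 genes were kept under every filter, and the signs of their changes between parental HepG2 and HepG2/metR held under every alternative. With upper-quartile scaling the median of the 10 genes in that comparison was 0.79 instead of 0.65, and that of all genes 0.15, a difference of 0.64 against 0.63 as deposited. With a threshold of 1.5-fold, 7 genes passed, 6 of them higher and 1 lower, against 26.7% and 27% of all genes. With oxamate, 1 gene (SNHG15) was at least 2-fold lower, against 0.524%. With equal FPKM totals, with or without small RNA genes, 2 genes were at least 1.5-fold higher and 1 lower with oxamate, and the median was 0.15 with and 0.17 without small RNA genes, while the median of all genes was 0.17 and 0.18. The signs of 4 genes (GAS5, SNHG5, SNHG6 and ZFAS1) turned with the scaling in the oxamate comparison. The share of all genes at least 1.5-fold higher with oxamate was 4.3% as deposited, 8.34% with a pseudocount of 0.1, 9.36% with none, 9.75% with equal totals and 10.6% with equal totals without small RNA genes. The shares that were lower were 3.82% as deposited, 4.97% with a pseudocount of 0.1, 5.24% with none, and 1.57% and 1.42% with equal totals with and without small RNA genes. Without the filter on low values, 8.31% of symbols passed 2-fold higher in HepG2/metR and 9.60% lower, and 2.28% and 1.91% passed 1.5-fold with oxamate. The cause of these shifts was not tested beyond the construction of each alternative.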
